A study of Mus musculus with 6 samples.

Results

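The genes followed here, 6 in number, mark or serve the glands of the mouse uterus: Foxa2, Prss28, Prss29, Ttr, Sox9 and Prom1. They were taken by symbol from the expression tables, and all 6 were found among the 21900 gene symbols. RNA had been sequenced from whole uteri of female mice, mated at an age of 6 to 8 weeks and killed on gestation day 4, with the day of the vaginal plug counted as day 1. There are 3 libraries of the genotype Mettl3 f/f and 3 of Mettl3 d/d. The product of Mettl3 is an enzyme that methylates adenosine in RNA. By common usage f/f is a floxed allele and d/d its deleted form, but the labels give neither the Cre driver nor the deleted part. The labels do not say whether a library is 1 animal, so p-values describe the spread between these libraries, which may be technical.

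Uterine glands are epithelial tubes that grow from the lumen into the stroma after birth and secrete proteins into the lumen. In mice they are needed for implantation, in part because they release leukemia inhibitory factor on the day the uterus becomes receptive. Foxa2 encodes the forkhead transcription factor that marks the glandular epithelium of the adult mouse uterus and is required for gland formation. Sox9 encodes a transcription factor of epithelial progenitors, and Prom1 encodes prominin 1 (CD133), a membrane protein of apical protrusions used as a progenitor marker in many epithelia. Prss28 and Prss29 encode the implantation serine proteinases 1 and 2, secreted enzymes made by the glands around implantation. Ttr encodes transthyretin, a carrier of thyroid hormone and of retinol-binding protein that liver and choroid plexus also make.

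Prss28 and Prss29 lie beside each other on chromosome 17 of GRCm38, at 25308646 to 25311876 and 25318654 to 25322684, on the plus strand with 6777 bases between them. Both stayed near 0 in every library, as given further on, so the stretch before each start is shown to compare them. The 250 bases upstream of each start (RefSeq, GRCm38.p6, chr17:25308396-25308645 and chr17:25318404-25318653) follow 5′ to 3′, with runs of at least 8 identical aligned bases in capitals.
Prss28: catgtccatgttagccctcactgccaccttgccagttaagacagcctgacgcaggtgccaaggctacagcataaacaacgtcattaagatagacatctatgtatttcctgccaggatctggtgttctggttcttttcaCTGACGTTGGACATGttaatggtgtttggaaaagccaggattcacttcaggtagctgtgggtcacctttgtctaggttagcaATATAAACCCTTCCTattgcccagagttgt
Prss29: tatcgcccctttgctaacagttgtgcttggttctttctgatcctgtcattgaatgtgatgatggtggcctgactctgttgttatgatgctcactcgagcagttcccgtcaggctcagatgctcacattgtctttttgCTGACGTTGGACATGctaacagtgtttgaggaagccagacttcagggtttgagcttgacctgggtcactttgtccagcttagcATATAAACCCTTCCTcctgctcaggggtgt
In a global alignment 165 of 261 columns were identical (63.2%). The capitals are 2 runs of 15 bases in the alignment used. Both stretches also hold the 8 bases TGGGTCAC, left in small letters because of where a gap was placed among places of equal score. With the base just before the start as position -1, CTGACGTTGGACATG begins at -112 in Prss28 and -113 in Prss29. The other run, ATATAAACCCTTCCT, begins at -30 in both and holds the TATA box letters TATAAA. On either strand, TATAAA was found in 12.4% of the 32851 RefSeq upstream stretches of this length. Neither stretch held TGTTTAC or TGTTTGC, forms of the forkhead motif searched on both strands, which 3.17% and 4.30% of the stretches held. Other forms of that motif were not searched, so either stretch may hold one. Of the 6 members, 4 had an entry in the promoter table.

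The authors deposited values taken here as FPKM, fragments per kilobase of gene scaled to the mapped total. Wherever values of a genotype are listed below, they stand in the order of replicates 1, 2 and 3. The tables hold no fragment numbers, but low values of genes with a single annotated transcript fell on whole multiples of 1 step once multiplied by transcript length. Of the values worth up to 5 steps, 92.2% to 95.7% per library lay within 0.1 of a whole number, against 20% for evenly spread values. Read as 1 fragment, the step puts the libraries at about 16600000 to 17800000 fragments each. Library totals ran from 535043 to 625575 FPKM. Per gene, the log2 SD between libraries had a median of 0.126 in f/f and 0.301 in d/d libraries. Mettl3 read 30.3, 29.8 and 26.3 FPKM across f/f, against 42.9, 30.1 and 46.5 across d/d (limma adjusted p = 0.202). Such whole-gene values include exons outside any deleted part, so they do not check the genotype labels.

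The members spanned a wide range of levels in the f/f uterus. Prom1 was the highest member in all 6 libraries and stood above 83.9% to 93.7% of the expressed genes of the f/f libraries. Foxa2 came second in both genotypes except in d/d replicate 3, where Sox9 passed it. The f/f ranges of Foxa2 (4.76 to 18.4 FPKM), Sox9 (3.08 to 4.78) and Ttr (1.89 to 6.94) overlapped, so the order of these 3 does not exceed their spread. Prss29 (0.0592 to 0.296 FPKM) and Prss28 (0 to 0.0585) lay below them without overlap, and with 1 fragment behind the lowest value of the one and the highest of the other their order is not resolved.

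**Figure D1:**
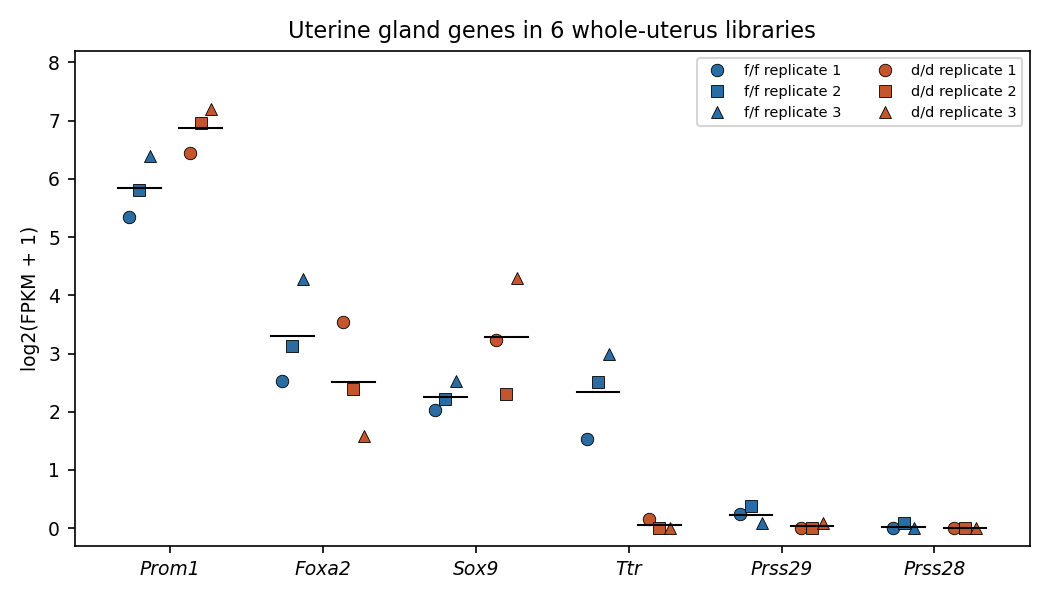
Values of the 6 gland genes on the log2(FPKM + 1) scale (vertical axis) by gene (horizontal axis). Points are libraries, circles, squares and triangles being replicates 1, 2 and 3 of f/f (blue) and d/d (orange), and bars are genotype means. Prom1 is highest throughout, the d/d values of Ttr lie at or near 0 below all 3 f/f values, and Prss28 and Prss29 lie near 0 in both genotypes.

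Differences between the genotypes were tested with limma on log2(FPKM + 1) over 12979 genes that reached 1 FPKM in at least 3 libraries, with Benjamini-Hochberg adjustment over all of them. Of the 6 members, 4 passed this filter and Prss28 and Prss29 did not. At an adjusted p under 0.05, 0 members were higher and 1 was lower, Ttr. Over all genes tested, 7.3% were called, 3.49% higher and 3.81% lower in d/d. The values of 2 members, Prom1 and Ttr, did not overlap between genotypes, as was the case for 35.9% of the genes tested. Ttr passed the filter only through the f/f libraries, so this count carries no weight as support. The median log2 fold change of the 4 tested members was 0.11, beside 0.02 over all genes tested. In whole tissue, fewer cells of a type and less RNA per cell cannot be told apart.

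Foxa2, the gland transcription factor gene (ENSMUSG00000037025, chromosome 2, 148042877 to 148046969, minus strand), showed no difference beyond its spread. It read 4.76, 7.73 and 18.4 FPKM across f/f, against 10.6, 4.24 and 2.00 across d/d. The groups overlapped, with f/f replicate 3 highest and d/d replicate 3 lowest, and d/d replicate 1 lay above f/f replicates 1 and 2. The means were 10.3 ± 7.16 and 5.62 ± 4.46 FPKM (SD, n = 3 each). The log2 fold change, d/d minus f/f, was -0.81 (SE 0.62, 95% interval -2.31 to 0.70, limma adjusted p = 0.451), and the two-sided exact permutation p was 0.4. The smallest p that 3 against 3 libraries can give is 0.1. Foxa2 also varied more among the f/f libraries than nearly all genes: its log2 SD there was 0.89, larger than that of 99.4% of the genes tested.

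Close relatives of Foxa2 and Sox9 were low. Of 4 listed, Foxa1, Foxa3, Sox8 and Sox10, none passed the filter. Foxa1, a forkhead gene of the same subfamily as Foxa2, had values of 0 throughout f/f and of 0.0763, 1.02 and 0 FPKM across d/d. Sox8, of the same Sox group as Sox9, stayed between 0.121 and 0.517 FPKM.

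Sox9 (ENSMUSG00000000567, chromosome 11, 112782224 to 112787760, plus strand) did not pass the test. It read 3.08, 3.64 and 4.78 FPKM across f/f, against 8.38, 3.97 and 18.6 across d/d. The groups overlapped through d/d replicate 2 alone, which lay inside the f/f range. The means were 3.83 ± 0.869 and 10.3 ± 7.51 FPKM (n = 3 each). The fitted log2 fold change was 1.02, with SE 0.49 and a 95% interval of -0.16 to 2.2 (limma adjusted p = 0.242), and the permutation p, exact and two-sided, was 0.2. On the log2 scale the SD of Sox9 came to 0.25 in f/f and 0.99 in d/d. With d/d replicate 2 left out the log2 fold change was 1.50 (limma adjusted p = 0.0531), and without d/d replicate 3 it was 0.51 (adjusted p = 0.344).

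Prom1 (ENSMUSG00000029086, chromosome 5, 43993620 to 44102032, minus strand) had higher values in every d/d library than in any f/f library, but the difference did not pass. It read 39.8, 54.9 and 82.8 FPKM across f/f, against 86.1, 124 and 146 across d/d. The gap between the groups was narrow, from f/f replicate 3 to d/d replicate 1. The means were 59.2 ± 21.8 and 119 ± 30.3 FPKM (n = 3 each), a ratio of 2.01. On the log2 scale the fit gave 1.02 with SE 0.31 and a 95% interval of 0.27 to 1.78 (limma adjusted p = 0.101), and the permutation p, exact and two-sided, was 0.1. Of all genes tested, 18.1% lay without overlap on the higher side in d/d, so this pattern was common. Prom1 has 19 annotated transcripts, overlaps Gm42716 on its own strand by 22657 bases and Gm16401 on the other strand by 1591, and the labels do not say whether strand was used in counting. Of its distinct 50-base stretches, 5.10% also occur in transcripts of other genes.

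Ttr (ENSMUSG00000061808, chromosome 18, 20665280 to 20674321, plus strand) was the only member called, with lower values in d/d. It passed the filter only through the f/f libraries, so its call and its lack of overlap carry no weight as support. It read 1.89, 4.70 and 6.94 FPKM across f/f, against 0.118, 0 and 0 across d/d. All 3 d/d libraries lay below all 3 f/f libraries, as 17.8% of the genes tested did. At the step described above these are 32, 80 and 118 fragments beside 2, 0 and 0. Exact Poisson 95% intervals, which cover counting error only, were 21.9 to 45.2, 63.4 to 99.6 and 97.7 to 141 fragments in f/f and 0.242 to 7.22 in d/d replicate 1. They do not overlap between genotypes. Those of f/f replicates 1 and 2 do not overlap either, so the f/f libraries differed among themselves by more than counting error. At a count of 0 the interval reaches 3.69 fragments, which is 0.223 and 0.233 FPKM in d/d replicates 2 and 3.

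On the log2(FPKM + 1) scale the fitted change of Ttr was -2.29 (SE 0.38, limma adjusted p = 0.0258, exact permutation p = 0.1). With values at 0 this figure depends on the pseudocount and is no bound. The call was lost without any 1 f/f library (adjusted p = 0.0549, 0.128 and 0.0825 without f/f replicates 1, 2 and 3), with limma weights for the spread of each genotype (0.0793) and with the replicate number as a block (0.0781). Without f/f replicates 1, 2 and 3 the limma calls over all genes also dropped from 947 to 0, 30 and 111, with 2292 genes at an unadjusted p under 0.05 in the case of 0 and 3460 with all libraries. Markers of liver, another tissue that makes Ttr, were measured beside it. Their sum over 6 genes was 2.83 to 2.92 FPKM in f/f and 1.23 to 3.14 in d/d. Most of it was Apoa2, an apolipoprotein gene, which read 2.76, 2.74 and 2.49 FPKM across f/f, against 1.76, 2.31 and 0.804 across d/d, without overlap (limma adjusted p = 0.246). Serpina1a and Fgb were at 0 in all libraries, and Alb, Apoa1 and Ahsg did not exceed 1.12 FPKM. Alb went the other way to Apoa2, at 0, 0 and 0.0311 FPKM across f/f, against 1.12, 0.160 and 0.0335 across d/d. The part of the liver genes in the Ttr values was not tested.

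The implantation proteinase genes were close to absent on this day in both genotypes. Prss28 (ENSMUSG00000024171) was listed at 0 in all libraries but f/f replicate 2, where it was at 0.0585 FPKM. That value is 1 fragment, the only one over all 6 libraries. The same upper limit of 3.69 fragments is 0.216 to 0.232 FPKM in the libraries at 0. No genotype difference could be detected at this depth (exact permutation p = 1).

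Prss29 (ENSMUSG00000034039) read 0.179, 0.296 and 0.0592 FPKM across f/f, against 0, 0 and 0.0637 across d/d. These are 3, 5 and 1 fragments beside 0, 0 and 1, or 9 against 1 in all. The groups overlapped, since d/d replicate 3 lay above f/f replicate 3. The exact permutation p was 0.2, and without the filter limma gave an adjusted p of 0.209. The Poisson intervals reach 11.7 fragments in f/f replicate 2 and 3.69 in a library at 0, and those of every f/f library overlap those of every d/d library. Shared sequence is small: 0 of 1167 distinct 50-base stretches of Prss28 transcripts and 8 of 1181 of Prss29 occur in transcripts of other genes, so the pair can be told apart where reads are that long.

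**Figure D2:**
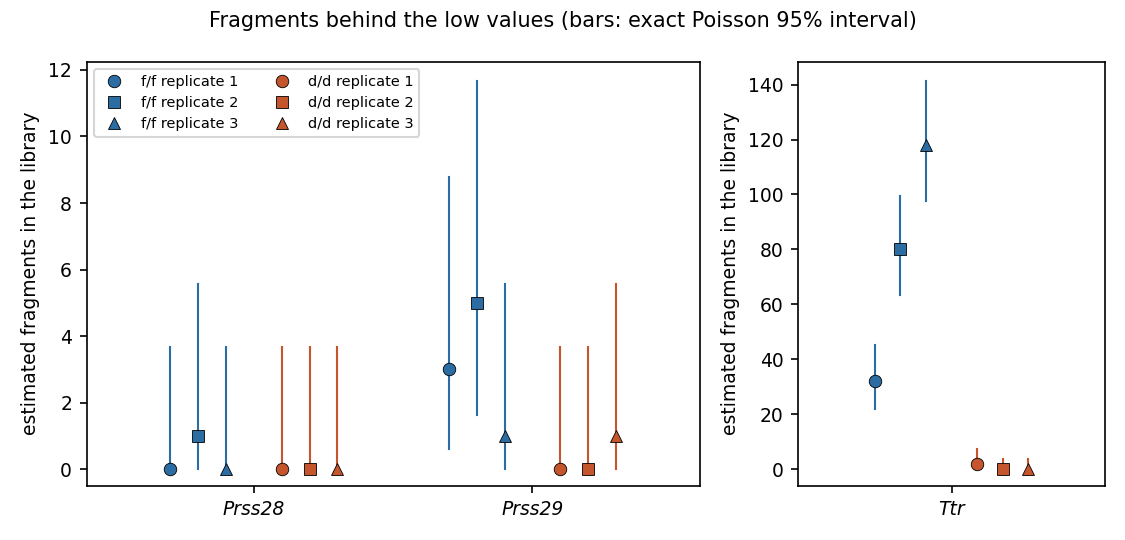
Estimated fragments (vertical axis, a separate scale for Ttr) behind the values of Prss28, Prss29 and Ttr (horizontal axis) in each library, with exact Poisson 95% intervals as lines. Points are replicates 1, 2 and 3 as circles, squares and triangles, f/f in blue and d/d in orange. Prss28 rests on 1 fragment and Prss29 on 10 over all libraries, while Ttr has 32 to 118 in f/f and 0 to 2 in d/d libraries.

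The neighbours of Prss28 and Prss29 differed in level, without a clean split into low and expressed stretches. Within 100000 bases on either side lie 10 other protein-coding genes, among them 4 of the tryptase-like family. Of that family Prss34 was listed at 0 in all 6 libraries, Tpsab1 did not exceed 0.124 FPKM and Tpsg1 did not exceed 0.107. Tpsb2, a mast cell tryptase gene, read 0.864, 0.924 and 2.68 FPKM across f/f, against 0.333, 5.52 and 0.711 across d/d, with overlapping groups. On the side before Prss34, Tsr3, which encodes an enzyme that modifies ribosomal RNA, was at 15.8 to 18.3 FPKM over the 6 libraries. The low levels of Prss28 and Prss29 were thus shared by Prss34 and Tpsab1 on either side of them and not by Tsr3.

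**Figure D3:**
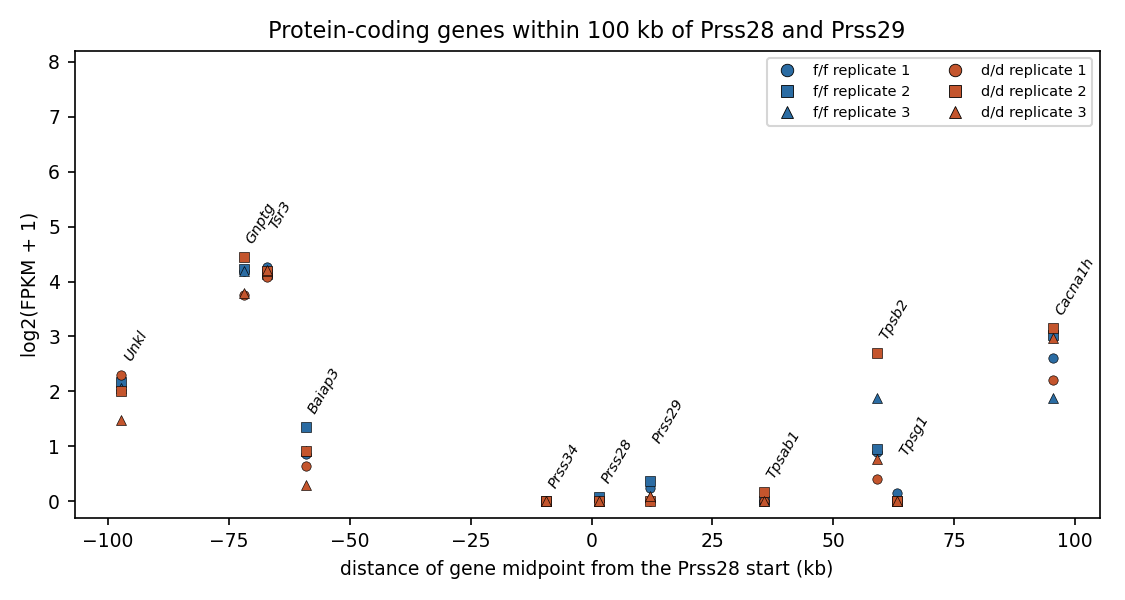
Values on the log2(FPKM + 1) scale (vertical axis) of protein-coding genes within 100 kb of Prss28 and Prss29, placed by the distance of each gene's midpoint from the Prss28 start in kb (horizontal axis). Points are libraries, f/f in blue and d/d in orange, with replicates 1, 2 and 3 as circles, squares and triangles. Prss34, Prss28, Prss29, Tpsab1 and Tpsg1 lie near 0, with Tsr3 and Gnptg higher on one side and Cacna1h on the other.

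Other secreted and progenitor genes of the glands moved in different directions. Of 11 listed, 10 are in the tables under the listed symbol, 6 were tested, 1 was higher (Aldh1a1), 1 lower (Spink1) and 4 did not pass, with a median log2 fold change of 0.44. Over all genes tested 3.49% were higher and 3.81% lower. Spink1, listed also under its older symbol Spink3, encodes a secreted trypsin inhibitor. It read 31.0, 36.9 and 20.7 FPKM across f/f, against 0.455, 0 and 0 across d/d. In fragments this is 274, 328 and 184 against 4, 0 and 0, so Spink1 and Ttr shared the same d/d pattern of a few fragments in replicate 1 and 0 in the others. The limma adjusted p of Spink1 was 0.00365, but like Ttr it passed the filter only through the f/f libraries, so its call carries no weight as support.

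Cxcl15, a chemokine gene of the glandular epithelium, took the same order of libraries within each genotype as Foxa2. It read 15.5, 20.2 and 34.6 FPKM across f/f, against 49.1, 7.87 and 0 across d/d (limma adjusted p = 0.483). The highest of the 6 libraries was thus a d/d library, and so was the lowest. In d/d replicate 1 an estimated 1647 fragments of Cxcl15 stood beside 2 of Ttr and 4 of Spink1.

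Aldh1a1, which encodes a retinaldehyde dehydrogenase, rose from 6.38 ± 2.04 to 34.0 ± 16.5 FPKM (n = 3 each), a log2 fold change of 2.17 (limma adjusted p = 0.0303). Its f/f values were 4.60, 5.94 and 8.61 and its d/d values 51.4, 31.9 and 18.7, without overlap. Lif, the implantation cytokine gene, read 4.67, 6.20 and 1.36 FPKM across f/f, against 2.45, 4.95 and 30.1 across d/d (limma adjusted p = 0.544). Its d/d replicate 3 stood apart, and the other d/d values lay within the f/f range. Pax8, an epithelial transcription factor gene, averaged 44.2 ± 5.97 and 50.6 ± 29.0 FPKM, and Lgr5, a Wnt-linked progenitor gene, 0.976 ± 0.615 and 3.69 ± 3.80 (limma adjusted p = 0.997 and 0.454). Dcpp1, Dcpp2 and Dcpp3 were listed at 0 in all 6 libraries.

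**Figure D4:**
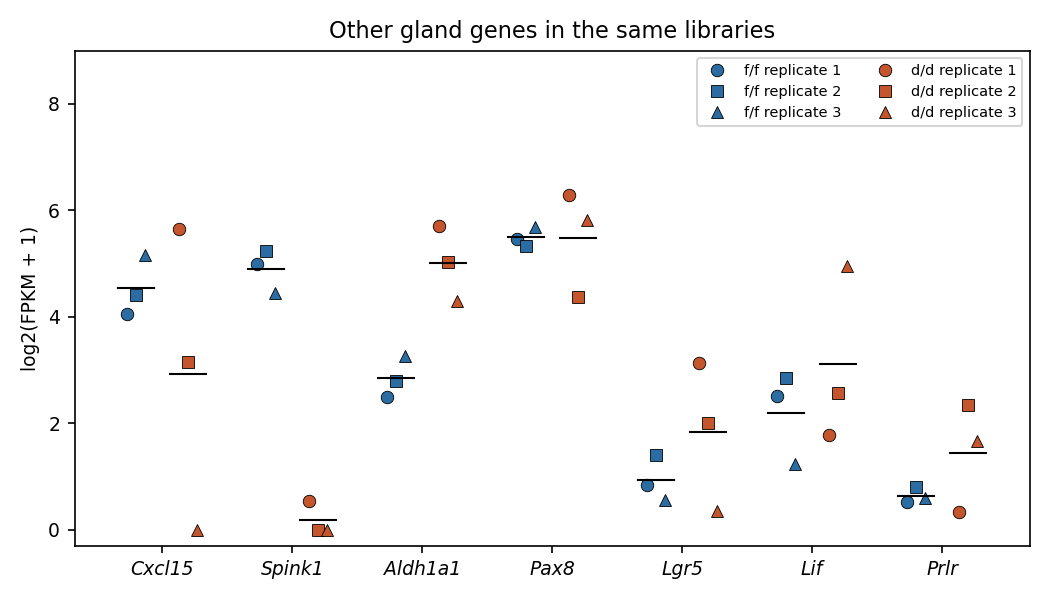
Values on the log2(FPKM + 1) scale (vertical axis) of 7 other gland genes (horizontal axis). Points are libraries, f/f in blue and d/d in orange, with replicates 1, 2 and 3 as circles, squares and triangles, and bars are genotype means. Spink1 lies at or near 0 in d/d, Aldh1a1 is higher in all 3 d/d libraries, and Cxcl15 runs from the highest to the lowest of its values within d/d.

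Among the f/f libraries several gland genes had the same extremes. Replicate 3 held the highest and replicate 1 the lowest value of Foxa2, Ttr, Sox9, Prom1, Cxcl15 and Aldh1a1. Spink1, Lif, Lgr5 and the near-absent Prss29 were instead lowest in replicate 3, and Pax8 was lowest in replicate 2. The highest f/f value was 3.87 times the lowest for Foxa2, 3.67 times for Ttr, 2.08 times for Prom1 and 1.55 times for Sox9. The log2 SD of Ttr among f/f libraries was larger than that of 98.9% of genes tested, that of Prom1 than 96.7% and that of Sox9 than 81.9%. Epcam, an adhesion gene of all epithelium, stood at 59.5% by the same measure. Among the d/d libraries Foxa2, Cxcl15 and Aldh1a1 were highest in replicate 1 and lowest in replicate 3, and Prom1 had the opposite extremes.

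Epithelial markers also differed between the libraries, so the members were set against them. Of 10 pan-epithelial markers (Epcam, Cdh1, Krt7, Krt8, Krt18, Krt19, Cldn3, Cldn7, Esrp1 and Elf3), 2 were higher in d/d (Epcam and Krt7), 0 were lower and none was at 0, beside 3.49% higher and 3.81% lower over all genes tested. Their summed level was 1272 to 1456 FPKM in f/f libraries and 2183, 907 and 3576 in d/d replicates 1, 2 and 3. Among d/d libraries Sox9 thus ranked as the marker sum did, lowest in replicate 2 and highest in replicate 3. Among f/f libraries both were highest in replicate 3, but the sum was lowest in replicate 2 and Sox9 in replicate 1. Immune cell markers summed to 53.5 to 73.9 FPKM in f/f and to 181, 1548 and 135 in d/d replicates 1, 2 and 3. Most of the sum in d/d replicate 2 was S100a8 and S100a9 (406 and 560 FPKM). In d/d replicate 3 these were at 0.238 and 0. Of the 9 immune markers tested, 8 had a positive log2 fold change. Ncr1 went the other way (-1.56), lower in every d/d library than in any f/f library. Ptprc and Cd3e lay below all f/f values in d/d replicate 3. The part of the immune cells, and that of the epithelial share, in the values of the members was not tested.

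The mean log2(FPKM + 1) of the 10 markers was subtracted from each member in the same library. For Sox9 the result was -4.40, -4.19 and -4.04 across f/f and -4.26, -3.98 and -3.86 across d/d, a difference of 0.18 (exact permutation p = 0.4). For Prom1 it was -1.07, -0.60 and -0.18 across f/f and -1.04, 0.67 and -0.95 across d/d, a difference of 0.18 with overlapping groups (exact permutation p = 0.8). Set against the markers, Prom1 overlapped between genotypes, and the mean difference of Sox9 was 0.18 in place of 1.02. With Epcam alone as the reference the differences were -0.52 for Sox9 and -0.52 for Prom1, so the direction of both turned with the marker chosen. The Sox9 groups did not overlap with Epcam as the reference (exact permutation p = 0.1), while those of Prom1 did (exact permutation p = 0.3).

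Foxa2 and Ttr had lower means in d/d on this scale, without passing a test. Foxa2 stood at -3.90, -3.28 and -2.29 across f/f and -3.95, -3.90 and -6.56 across d/d, a difference of -1.65 (exact permutation p = 0.1). The groups were barely apart, since f/f replicate 1 and d/d replicate 2 were equal to 2 decimals, and they overlapped with a pseudocount of 0.1 (exact permutation p = 0.2). Without d/d replicate 3 the difference was -0.77. With Epcam alone as the reference, all libraries kept, it was -2.35 and the groups did not overlap (exact permutation p = 0.1). Epcam was itself higher in d/d (log2 fold change 1.54), which lowers every member set against it. Cldn3, another of the markers, was lower in d/d without overlap (-1.15), by more than Foxa2 (-0.81). The direction of Foxa2 thus also depends on the marker chosen. Ttr stood at -4.89, -3.90 and -3.58 across f/f and -7.32, -6.29 and -8.15 across d/d, a difference of -3.13 that depends on the pseudocount (exact permutation p = 0.1). In d/d replicates 2 and 3, where Ttr is at 0, these values carry the markers alone. Adjusted over these 4 differences, the permutation p was 0.2 for Foxa2 and Ttr, 0.533 for Sox9 and 0.8 for Prom1, and 3 against 3 libraries cannot pass 0.05.

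**Figure D5:**
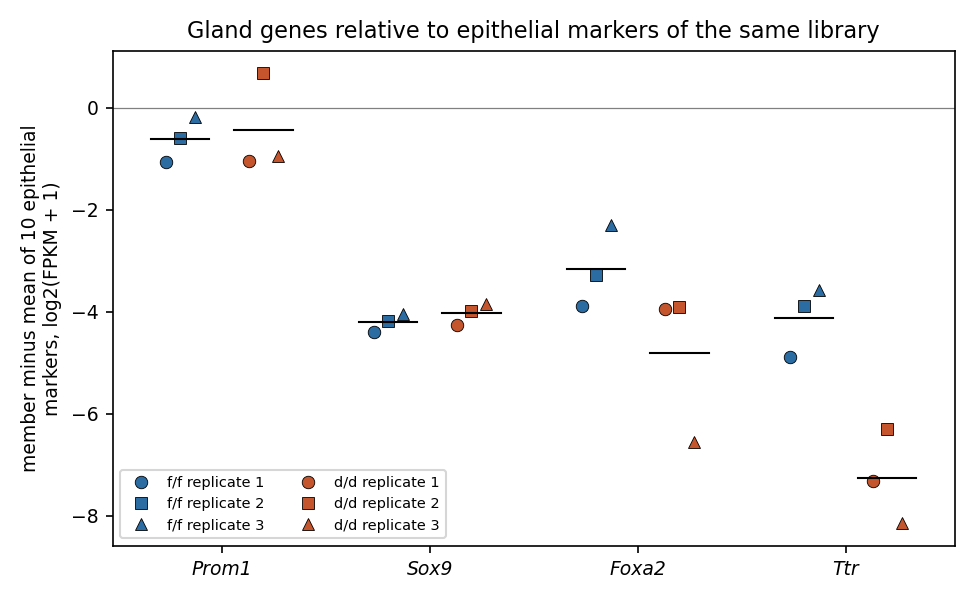
Each member's log2(FPKM + 1) minus the mean of 10 pan-epithelial markers in the same library (vertical axis, log2 units) for Prom1, Sox9, Foxa2 and Ttr (horizontal axis). Points are libraries, f/f in blue and d/d in orange, with replicates 1, 2 and 3 as circles, squares and triangles, and bars are genotype means. Sox9 and Prom1 overlap between genotypes, Foxa2 is lowest in d/d replicate 3, and the Ttr points of d/d replicates 2 and 3 are the markers' mean with its sign turned, since Ttr is at 0 there.

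Other genes of gland biology were called in both directions. Of 13 genes with roles in gland formation all were tested, 1 was higher (Wnt4), 2 were lower (Lef1 and Hoxa11) and 10 did not pass, beside 3.49% higher and 3.81% lower over all genes tested, with a median log2 fold change of 0.00. Lef1, a transcription factor gene of Wnt signalling, fell from 19.1 ± 3.34 to 2.54 ± 1.89 FPKM (n = 3 each, limma adjusted p = 0.0321), and Hoxa11, a homeobox gene of uterine patterning, from 135 ± 3.51 to 29.2 ± 9.53 (adjusted p = 0.00887). Wnt4, a Wnt ligand gene, rose from 1.39 ± 0.618 to 17.5 ± 8.57 FPKM (adjusted p = 0.0227). Wnt11, another Wnt ligand gene, read 45.5, 45.4 and 40.1 FPKM across f/f, against 30.2, 1.10 and 0.104 across d/d, without passing (limma adjusted p = 0.129). Ctnnb1, which encodes beta-catenin, averaged 339 ± 5.29 and 450 ± 38.1 FPKM and did not pass either (limma adjusted p = 0.102). Of 5 genes of the LIF receptor pathway 1 was higher, Lifr (5.13 ± 1.10 against 15.7 ± 5.06 FPKM, n = 3 each, limma adjusted p = 0.0371), and 4 did not pass (Il6st, Jak1, Stat3 and Socs3), with a median of 0.08. Il6st, the gp130 chain that pairs with Lifr, averaged 71.1 ± 10.8 and 76.4 ± 18.0 FPKM (limma adjusted p = 0.839).

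The genes with the most similar pattern over the 6 libraries were sought by Pearson correlation of log2(FPKM + 1) among 5035 tested genes with a range of at least 1 on that scale. They were picked as the highest of many, and the points share library and genotype, so the values are descriptive. Nearest to Foxa2 were Epha8 (r = 0.976), Lmntd2 (0.971) and the claudin gene Cldn10 (0.969). Cldn10 read 16.4, 16.9 and 32.1 FPKM across f/f, against 20.3, 11.7 and 6.76 across d/d. Nearest to Sox9 were Wfs1 (0.997), Perp (0.995) and Oit1 (0.994), all 3 highest in d/d replicate 3.

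Prom1 was matched most closely by B3gnt2 (r = 0.976), Hes6 (0.963) and Nif3l1 (0.962). Ttr was matched by Cyp3a59 (0.990), Sidt1 (0.989) and Fhit (0.985), and Cyp3a59 was also listed at 0 in d/d replicates 2 and 3. For Prss29 the nearest were Tnnt1 (0.989), Gchfr (0.980) and Pde9a (0.970), but its pattern rests on 0 to 5 fragments a library. No gene stood among the nearest 3 of more than 1 member.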

How the data were processed

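Whole-uterus RNA libraries (3 f/f, 3 d/d) were analysed from 1 table per library. The values were taken as FPKM as deposited by the authors; the file headers name no unit. The submitters' processing notes list HISAT2 2.2.1, Cufflinks 2.2.1, mm9 and mm10, without roles. Neither annotation nor options nor strandedness is given there or in the labels. An exact 0 can also stand for an estimate that failed.

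Of rows sharing a symbol the highest mean was kept (36 rows dropped). Genotype was tested by limma 3.58.1 (R 4.3.3, with intensity trend) on log2(FPKM + 1), a scale that understates changes of low genes. The script was tested on simulated data with the same spread in both genotypes, so that test does not cover the unequal spread of these libraries. Fold changes are d/d minus f/f. Depth was estimated from 3358 genes with 1 annotated transcript of 800 to 6000 bases (GENCODE M21, GRCm38), after taking 230 bases off the length, the offset in steps of 10 with the highest peak at 1 step; the longest transcript served for each gene converted. Coordinates are from the same annotation by gene ID.

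The members and lists were chosen with earlier results of these data known. The genes named are the 6 members, Mettl3, called list members with up to 4 others per list, and the 3 nearest patterns per member. Foxa1, Sox8, Prss32, Tpsab1, Tpsb2, Tpsg1, Prss34, Tsr3, Gnptg, Cacna1h, Epcam, Dcpp1, Dcpp2, Dcpp3 and the liver genes were named for their level or place. Marker lists were pan-epithelial, stroma, smooth muscle, endothelium, immune, liver, ciliated and oviduct, and blastocyst. Some items, among them 1 further list and 1 neighbouring gene, are not reported here. Alternatives were pseudocounts 0.1 and 0.5, filters, scalings, limma without trend, weights, a replicate block and leaving out each library.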

Additional observations from a re-analysis of the deposited data

How the results depend on the processing

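The direction of the log2 fold change of Foxa2, Ttr, Sox9 and Prom1 was kept under every alternative run, and the calls of Foxa2, Sox9 and Prom1, none past 0.05, did not change in any of 15 alternatives each. With 1 library left out at a time the log2 fold changes were -1.32 to -0.32 (Foxa2), -2.70 to -1.97 (Ttr), 0.51 to 1.50 (Sox9) and 0.77 to 1.29 (Prom1), and limma adjusted p ran from 0.197 to 0.812, 0.0361 to 0.128, 0.0531 to 0.486 and 0.0736 to 0.279. For Ttr the call was lost with weights by genotype and with the replicate block (log2 fold change -2.29 in both, adjusted p = 0.0793 and 0.0781), so 0 members were lower under each. Ttr did not reach the filter of a mean of at least 5 FPKM, where 0 of 3 members were lower. Leaving out 1 library gave 0 to 1 members lower and 0 to 1367 genes changed. With the replicate block 100 genes were called, against 947 without it. Same-numbered libraries of the genotypes did not deviate together (r = -0.02, 0.02 and -0.02 for numbers 1, 2 and 3). No f/f library correlated best with its own number. With 3 libraries per genotype a weak shared effect could not be seen this way, so whether the numbers pair the libraries is not settled.

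Set against epithelial markers, Ttr differed by -5.82 with a pseudocount of 0.1, by -3.83 with Epcam alone and by -3.61 to -2.69 with 1 library left out. Foxa2 differed by -2.35 with Epcam alone and by -2.10 to -0.77 with 1 library left out. Cldn3 alone, a marker that was lower in d/d by more than Foxa2, was not run as the reference. Sox9 turned to -0.52 with Epcam alone (0.08 to 0.29 with 1 library left out). Prom1 turned to -0.52 with Epcam alone, to -0.05 without f/f replicate 1 and to -0.37 without d/d replicate 2 (range -0.37 to 0.48). The cause was not tested. Prss28 and Prss29 were not set against the markers, since both rest on at most 5 fragments a library.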

Other observations

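Serine protease genes of the same family, outside the glands' implantation pair, differed between the libraries. Of 11 listed, 3 were tested, 1 was lower (Prss33) and 2 did not pass, where 3.81% of all genes tested were lower. Prss33 read 2.21, 2.91 and 2.14 FPKM across f/f, against 0.0670, 0 and 0 across d/d (limma adjusted p = 0.00886), at or near 0 in d/d like Ttr and Spink1. It too passed the filter only through the f/f libraries, so its call carries no weight as support. Prss32, chosen after its values were seen, was at 0 throughout f/f and read 0.103, 6.57 and 4.59 FPKM across d/d. Prss22 read 0.827, 0.564 and 1.13 FPKM across f/f, against 1.35, 17.0 and 21.6 across d/d without overlap (limma adjusted p = 0.131). Prss8, which encodes the epithelial protease prostasin, averaged 34.9 ± 1.61 and 50.2 ± 35.5 FPKM (n = 3 each, limma adjusted p = 0.953).

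Of 5 markers of ciliated and oviduct epithelium 3 were tested and none passed. The median log2 fold change of those tested was -1.27, and Ccdc40 among them passed the filter only through the f/f libraries. Foxj1, under the filter, went the other way: 0.283, 0.351 and 0.422 FPKM across f/f, against 1.61, 0.701 and 0.479 across d/d. Dnah5, also under the filter, was lower in d/d. Ovgp1, the oviductal glycoprotein gene, read 88.2, 17.7 and 29.4 FPKM across f/f, against 15.6, 1.36 and 0.741 across d/d (limma adjusted p = 0.101). The summed level of this list, most of it Ovgp1 in the f/f libraries, was 28.0 to 98.9 FPKM in f/f and 2.04 to 23.2 in d/d libraries. Stroma markers had 0 of 9 called, smooth muscle 1 of 7 (Smtn, lower), endothelium 1 of 6 (Cdh5, lower) and immune cells 1 of 9 tested (Cd68, higher), beside 3.49% called higher and 3.81% lower over all genes tested. Of 6 blastocyst markers Pou5f1, Cdx2 and Zfp42 were at 0 in all libraries, Nanog and Tdgf1 did not exceed 0.105 FPKM, and Gata6 read 3.76 to 8.85 FPKM.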
